A study of Homo sapiens with 17 samples.

Results

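TIMP1, PAEP, CD44 and STC1 are 4 of the 57638 genes to which reads of the deposited libraries could be assigned. They were chosen by their measured CPM and fitted differences in the libraries named for GOLGA8N, set against the other libraries, LAPTM4B 1 and 2 or the prefixed ones. Their levels in the GOLGA8N libraries are therefore given as a description, with no test. Estimated reads were summed over the transcripts of each gene and scaled to the library's total in genes (CPM).

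Total RNA was profiled by 3′ tag sequencing in K562, an established human line from a chronic myeloid leukaemia, which the labels call lymphoblasts. All cells had been electroporated with CRISPR plasmids, had then received an antisense oligonucleotide, and were taken on day 6. Plasmids whose label names a human gene were meant to activate that gene. There were 17 libraries under 15 plasmid labels. GOLGA8N and LAPTM4B each had a pair of libraries titled 1 and 2. The other 9 unprefixed labels were Neg, GFP, RFP, E7, TTR, TRPC5OS, COL6A6, ADORA2A and UBE2V1, with 1 library each. Of these, Neg, GFP and RFP were taken to name no human gene, and they served below as another reference set. E7, whose meaning is not given, was left out of that set. The 4 remaining libraries carried a number before the gene: 20-ARSF, 21-CTPS2, 22-LAPTM4B and 23-GOLGA8N. The labels do not say what these numbers, the titles 1 and 2, Neg or E7 stand for, nor whether the libraries are separate cultures. The p-values therefore rest on the spread among these libraries alone, which may be technical. No library without oligonucleotide or without plasmid was analysed here.

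TIMP1 encodes tissue inhibitor of metalloproteinases 1, a secreted protein that blocks matrix-degrading proteases and was also described as an erythroid-potentiating activity. PAEP encodes glycodelin, a secreted glycoprotein of the lipocalin family best known from the progesterone-primed endometrium. CD44 is a cell-surface receptor for hyaluronan whose variable exons give many splice forms, and STC1 encodes stanniocalcin 1, a secreted glycoprotein hormone first known for calcium regulation in fish. The 3 secreted proteins and CD44 all act at or outside the cell surface.

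In GENCODE 29 (GRCh38) TIMP1 (ENSG00000102265.11) lies on chromosome X from 47582313 to 47586789 on the plus strand, inside SYN1, which runs on the opposite strand and had at most 4.16 CPM in any library. PAEP (ENSG00000122133.16) lies on chromosome 9 from 135561756 to 135566955, plus strand, and no other annotated gene overlaps it. CD44 (ENSG00000026508.18) lies on chromosome 11 from 35138870 to 35232402, plus strand, with the antisense gene CD44-AS1 at 0 CPM in every library and the sense intronic AL133330.1 at up to 0.611 CPM.

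RefSeq's promoter table (GRCh38.p14) holds 3 of the 4 genes, and these windows are shown because TIMP1, PAEP and CD44 were high in the same pair of libraries. Each runs from 250 bases before to 50 bases after the start that RefSeq gives, on the plus strand. For TIMP1 and CD44 that start lies downstream of the outermost GENCODE start given above, and for PAEP the starts coincide. Capitals mark 2 motifs searched on both strands, the AP-1 motif TGANTCA and the GC box GGGCGG.
TIMP1, chrX:47582186-47582485: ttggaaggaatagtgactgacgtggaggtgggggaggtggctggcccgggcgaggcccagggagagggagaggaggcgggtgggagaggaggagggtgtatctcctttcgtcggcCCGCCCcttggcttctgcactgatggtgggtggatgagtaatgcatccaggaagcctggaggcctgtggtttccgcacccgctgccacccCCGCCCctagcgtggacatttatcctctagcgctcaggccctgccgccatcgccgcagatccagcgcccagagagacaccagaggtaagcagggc
PAEP, chr9:135561506-135561805: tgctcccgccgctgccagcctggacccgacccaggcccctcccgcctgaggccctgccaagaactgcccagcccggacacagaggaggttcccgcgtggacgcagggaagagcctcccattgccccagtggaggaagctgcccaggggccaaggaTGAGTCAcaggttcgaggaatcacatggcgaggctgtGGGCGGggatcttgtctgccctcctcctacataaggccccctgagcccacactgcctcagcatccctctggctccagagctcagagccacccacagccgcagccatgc
CD44, chr11:35138921-35139220: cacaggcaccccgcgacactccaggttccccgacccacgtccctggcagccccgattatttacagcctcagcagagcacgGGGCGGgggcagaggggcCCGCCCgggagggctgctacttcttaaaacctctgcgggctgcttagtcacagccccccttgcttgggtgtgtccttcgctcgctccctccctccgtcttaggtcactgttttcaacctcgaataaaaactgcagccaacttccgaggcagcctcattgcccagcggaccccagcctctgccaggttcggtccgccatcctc

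The GC box was present in all 3 windows, and 45% of the 35116 promoters of the same length hold it. The AP-1 motif stood once, in PAEP, as TGAGTCA starting 95 bases before the RefSeq start, and 7.71% of promoters hold it. The short hypoxia core ACGTG was found in TIMP1 and CD44, against 21.4% of promoters, and it overlapped neither marked motif. TATAAA was in none of the 3 windows and is in 11.5% of promoters. The GATA motif TGATAAG, in 1.73% of promoters, and an NF-kB motif, in 1.61%, were not found either. These matches describe the sequence and show no binding. Only exact matches to the stated motifs were counted, so variant sites, those of AP-1 in TIMP1 and CD44 included, were not searched.

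GFP was the shallowest library with 569057 estimated reads, and the others held 2252097 to 4236396, with a median of 3222049 over all 17. A gene at 0 reads could thus be present at up to 3 reads, which were worth 5.46 CPM in GFP and 0.733 CPM in the deepest library. Intervals and such limits cover counting error only. GOLGA8N itself had 2.01 estimated reads over all 17 libraries, with 0.318 CPM in 23-GOLGA8N and 0 CPM in GOLGA8N 2, so its level does not check the labels, and reads could be shared with near-identical GOLGA8 copies. Of the 13 K562 and erythroid marker genes all had reads, and their summed level was 5017 to 9604 CPM. In GOLGA8N 1 and 2 the sum was 9205 to 9456 CPM, inside the range of the other unprefixed libraries and above their median of 7149 CPM. All 13 had a log2 difference above 0 for this pair, with a median of 0.42 and none called, and the part of this in the results below was not tested. Of the B-cell markers CD79B and MS4A1 had 0 reads in every library and the list summed to at most 5.62 CPM. CD3E and CD2 had 0 reads, while CD3D, another T-cell marker, was at 33.2 to 119 CPM.

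GOLGA8N 1 and GOLGA8N 2 held the highest levels of all 4 genes among the 17 libraries, whereas 23-GOLGA8N did not share this. The ratio of the mean CPM of the pair to that of the 11 other unprefixed libraries was 2.67 for TIMP1, 8.66 for PAEP, 6.45 for CD44 and 15.1 for STC1. In these bulk profiles a larger share of cells expressing a gene and more of its RNA per cell cannot be told apart.

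**Figure D1:**
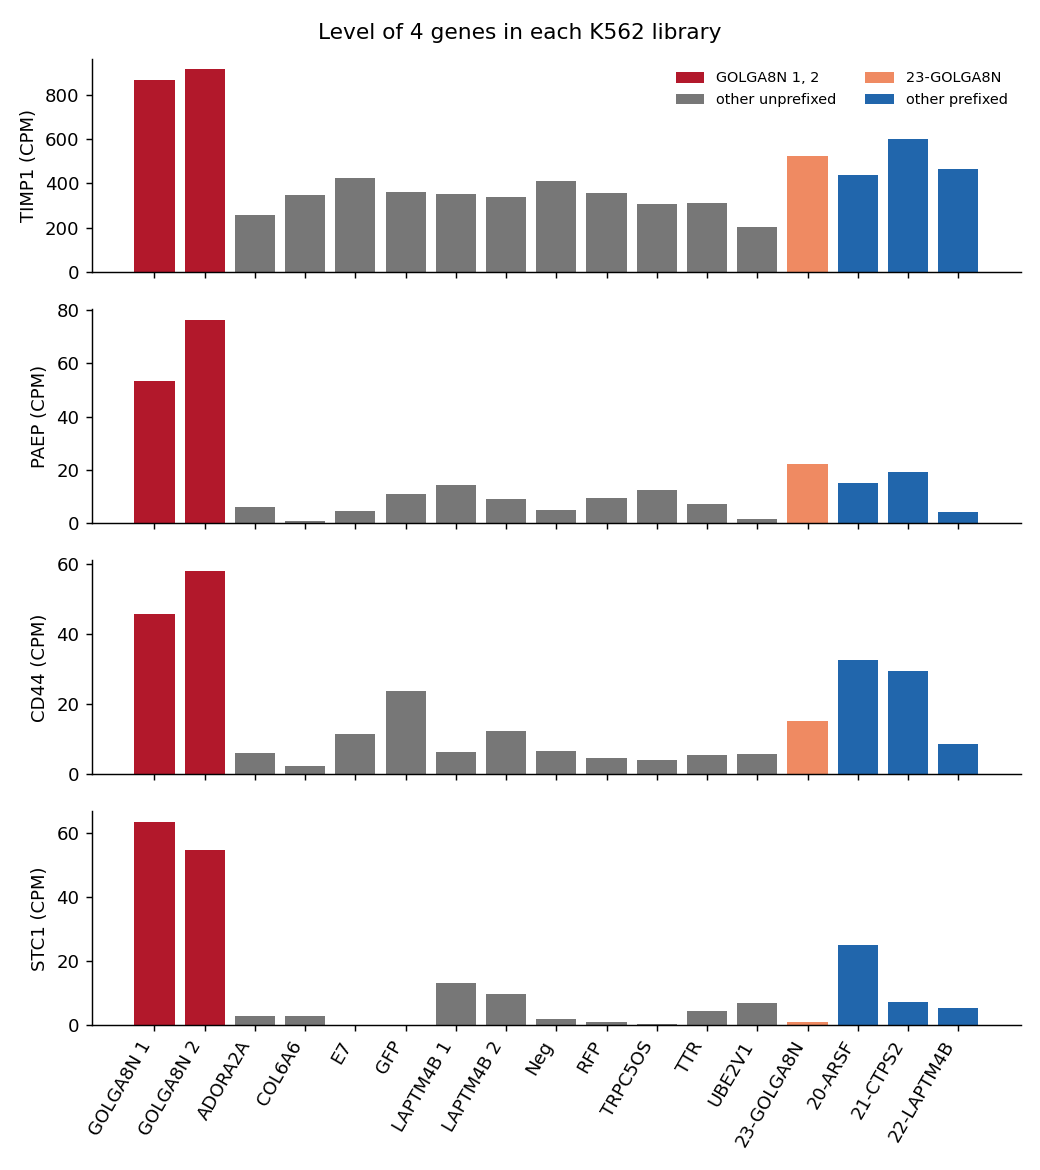
CPM (linear axes from 0) for TIMP1, PAEP, CD44 and STC1 in each of the 17 libraries, 1 bar per library, coloured by set. The pair GOLGA8N 1 and 2 stands highest in each panel, at 867 and 916 CPM for TIMP1, where 23-GOLGA8N at 524 CPM lies among the other prefixed libraries.

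TIMP1 was at 867 CPM (2295 reads) in GOLGA8N 1 and 916 CPM (2399 reads) in GOLGA8N 2. In the 11 other unprefixed libraries it ran from 204 CPM in UBE2V1 through a median of 350 to 426 CPM in E7, with a mean of 334 ± 63 (SD, n = 11). In 23-GOLGA8N it was at 524 CPM (1140 reads). The 3 other prefixed libraries were at 440 CPM in 20-ARSF, 465 CPM in 22-LAPTM4B and 601 CPM in 21-CTPS2. So the pair lay above every other library, and 23-GOLGA8N lay within the range of the prefixed ones. The fitted log2 difference was 1.46 ± 0.151 (SE) for the pair against the other unprefixed libraries and 0.07 ± 0.252 (SE) for 23-GOLGA8N against the other prefixed ones.

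Sorted by level, TIMP1 had 16 pairs of neighbouring libraries, and the 95% Poisson intervals of 11 pairs overlapped. The interval was 832 to 903 CPM in GOLGA8N 1 and 880 to 954 CPM in GOLGA8N 2, so these overlapped, while the next library, 21-CTPS2, reached only 631 CPM at its upper bound. TIMP1 was the only one of the 4 genes with at least 198 reads in every library, GFP included.

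PAEP was at 53.3 CPM (141 reads) in GOLGA8N 1 and 76.4 CPM (200 reads) in GOLGA8N 2. The 11 other unprefixed libraries ran from 0.991 CPM in COL6A6 through a median of 7.34 to 14.4 CPM in LAPTM4B 1, with a mean of 7.48 ± 4.33 (SD, n = 11). In 23-GOLGA8N it was at 22.1 CPM (48 reads). The other prefixed libraries were at 4.34 CPM in 22-LAPTM4B, 15.2 CPM in 20-ARSF and 19.2 CPM in 21-CTPS2. PAEP was the only one of the 4 genes for which 23-GOLGA8N ranked directly after the pair and above all libraries not named for GOLGA8N, although its margin over 21-CTPS2 was within counting error. The fitted log2 difference was 3.17 ± 0.454 (SE) for the pair and 0.79 ± 0.798 (SE) for 23-GOLGA8N.

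CD44 was at 45.7 CPM (121 reads) in GOLGA8N 1 and 58.1 CPM (152 reads) in GOLGA8N 2. The 11 other unprefixed libraries ran from 2.41 CPM in COL6A6 through a median of 5.98 to 23.6 CPM in GFP, with a mean of 8.05 ± 5.96 (SD, n = 11). The GFP value rests on 13 reads and has a 95% Poisson interval of 12.6 to 40.4 CPM. In 23-GOLGA8N CD44 was at 15.2 CPM (33 reads), below 20-ARSF at 32.5 CPM and 21-CTPS2 at 29.4 CPM and above 22-LAPTM4B at 8.68 CPM. 20-ARSF and 21-CTPS2, which do not name GOLGA8N, thus lay above all unprefixed libraries outside the pair and below both libraries of the pair. The fitted log2 difference was 2.84 ± 0.422 (SE) for the pair and -0.62 ± 0.78 (SE) for 23-GOLGA8N, and no neighbours in the order of CD44 levels were separated by their counting intervals.

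STC1 (ENSG00000159167.11) lies on chromosome 8 from 23841915 to 23854807, minus strand, and no other annotated gene overlaps it. It was at 63.5 CPM (168 reads) in GOLGA8N 1 and 54.6 CPM (143 reads) in GOLGA8N 2. The 11 other unprefixed libraries ran from 0 reads in GFP and E7 through a median of 2.74 to 13.2 CPM in LAPTM4B 1, with a mean of 3.91 ± 4.33 (SD, n = 11). For GFP the 0 reads allow up to 5.46 CPM. In 23-GOLGA8N STC1 had 2 reads (0.92 CPM), below 22-LAPTM4B at 5.5 CPM, 21-CTPS2 at 7.26 CPM and 20-ARSF at 24.9 CPM. The pair was above all other libraries, while 23-GOLGA8N was below every other prefixed library and among the lowest of all. The fitted log2 difference was 3.84 ± 0.832 (SE) for the pair and -3.72 ± 2.24 (SE) for 23-GOLGA8N, the latter resting on 2 reads. Without 20-ARSF that of 23-GOLGA8N was -2.73, and CD44 and PAEP also varied with 1 prefixed library left out, from -1.001 to -0.29 and from 0.39 to 1.15.

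All 4 genes had GOLGA8N 1 and 2 above every one of the 11 other unprefixed libraries, which held for 1.23% of the 16863 genes tested in the fit of 17 libraries. In that fit edgeR called 5 genes (0.0297%) for the pair, TIMP1, PAEP and CD44 among them and STC1 not. Since these contrasts chose the 4 genes, nothing is read from either count. The 2 other called genes were the lincRNA AC091057.3, at 76.3 and 50.1 CPM in the pair, 17.1 CPM in 23-GOLGA8N and at most 2.01 CPM elsewhere, and CTSL, the lysosomal protease cathepsin L. CTSL was at 245 CPM in GOLGA8N 1 and 320 CPM in GOLGA8N 2, against 89.9 to 216 CPM in the other unprefixed libraries, a log2 rise of 1.02 ± 0.181 (SE; edgeR adjusted p = 0.00223). In 23-GOLGA8N CTSL was at 145 CPM, and the other prefixed libraries had 192 to 200 CPM. For 23-GOLGA8N against the other prefixed libraries edgeR called 0 of 16863 genes (0%), with 681 at an unadjusted p under 0.05, and DESeq2 called 1.

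Set directly against LAPTM4B 1 and 2, the pair GOLGA8N 1 and 2 was higher by a fitted log2 difference of 1.40 for TIMP1, 2.48 for PAEP, 2.51 for CD44 and 2.39 for STC1. The difference of STC1 was smaller here than against all 11 libraries, among which LAPTM4B 1 and 2 held its highest levels, 13.2 and 9.73 CPM. edgeR called 2 of 10879 genes (0.0184%) in this comparison, TIMP1 and AC091057.3, which again belong to the contrasts that chose the genes.

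**Figure D2:**
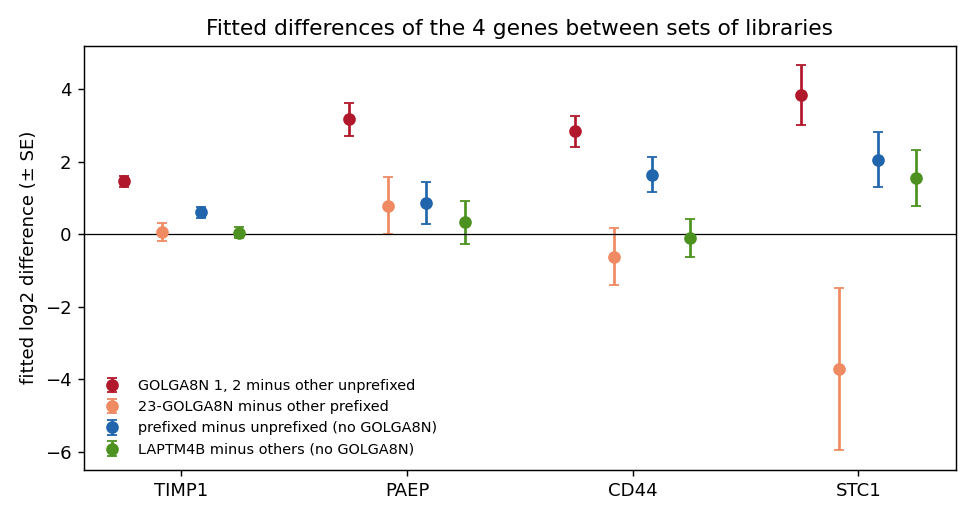
Fitted log2 differences with their SE (vertical bars) for the 4 genes: GOLGA8N 1 and 2, 23-GOLGA8N, the prefix and LAPTM4B, each against its comparison libraries. The differences of GOLGA8N 1 and 2 lie between 1.46 and 3.84, while those of 23-GOLGA8N run from -3.72 to 0.79.

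The prefix was examined next in 14 libraries, with the libraries named for GOLGA8N left out. These 14 libraries were the reference when the 4 genes were chosen, so the p-values given here for the 4 genes are not independent of that choice. They are printed as a description, and no difference is taken as shown or as absent from them. TIMP1 averaged 502 ± 86.9 CPM (SD, n = 3) in the prefixed and 334 ± 63 (SD, n = 11) in the unprefixed libraries. The 3 prefixed libraries all lay above the 11 unprefixed ones, as for 0.569% of the 14230 genes tested, and TIMP1 was the only one of the 4 genes with this separation. The margin was narrow, since the counting intervals of 20-ARSF (420 to 461 CPM) and E7 (406 to 447 CPM) overlapped. Its log2 difference was 0.61 ± 0.148 (SE), which missed the threshold in edgeR (adjusted p = 0.24, 3 against 11 libraries). It passed in DESeq2 (log2 0.60, adjusted p = 0.0309) and in edgeR with no filter on low counts (log2 0.62, adjusted p = 0.0276), so the call depends on the tool and the filter.

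CD44 differed with the prefix by log2 1.65 ± 0.474 (SE; edgeR adjusted p = 0.307), STC1 by 2.05 ± 0.758 (SE; edgeR adjusted p = 0.559) and PAEP by 0.87 ± 0.579 (SE; edgeR adjusted p = 0.783). None of these passed, and in each 22-LAPTM4B lay within the unprefixed range. STC1 rested on 20-ARSF: its log2 difference without that library was 0.72. Without 21-CTPS2 the differences were 0.47 for TIMP1 and 0.47 for PAEP. Without 22-LAPTM4B they were larger, at 0.66 for TIMP1, 1.45 for PAEP, 2.14 for CD44 and 2.74 for STC1. edgeR called 6 genes for the prefix (0.0422%), 5 of them higher (0.0351%), and none was one of the 4 genes. HBE1, an embryonic globin gene, was among the higher ones, at log2 0.99 ± 0.171 (SE, edgeR adjusted p = 0.0182). Without 20-ARSF the number called was 1, and without 21-CTPS2 it was 0.

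The LAPTM4B label gave no call for the 4 genes among the same 14 libraries, of which LAPTM4B 1 and 2 had also served in their choice, so these p-values are not independent of it either. TIMP1 averaged 385 ± 69.6 CPM (SD, n = 3) in LAPTM4B libraries and 366 ± 105 (SD, n = 11) in the others, a log2 difference of 0.04 ± 0.153 (SE; edgeR adjusted p = 0.9997, with the prefix as a term). The log2 differences were 0.34 ± 0.597 (SE) for PAEP and -0.10 ± 0.535 (SE) for CD44. STC1 was at 5.5, 9.73 and 13.2 CPM in the LAPTM4B libraries and had a median of 2.74 CPM in the others, with a log2 difference of 1.56 ± 0.776 (SE) that missed the threshold (edgeR adjusted p = 0.9997). edgeR called 0 of 14230 genes (0%), with 247 at an unadjusted p under 0.05, and DESeq2 called 2.

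**Figure D3:**
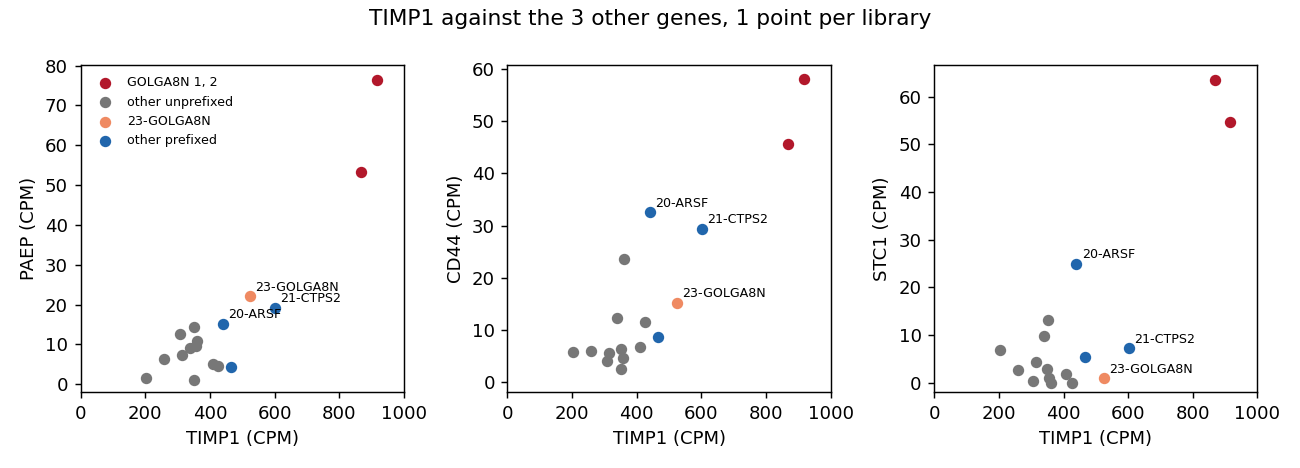
TIMP1 (x axis, CPM) against PAEP, CD44 and STC1 (y axes, CPM), 1 point per library. GOLGA8N 1 and 2 lie apart at the upper right of each panel, and 20-ARSF stands above the other libraries not named for GOLGA8N in CD44 at 32.5 CPM and STC1 at 24.9 CPM.

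Among the 11 unprefixed libraries not named for GOLGA8N the 4 genes gave no pair past an adjusted p of 0.05. These 11 libraries also belonged to the reference when the 4 genes were chosen, so these p-values are not independent of that choice either. Over 6 pairs, Pearson's r of log2(CPM + 1) ran from -0.40 for TIMP1 and STC1 to 0.38 for PAEP and CD44, with permutation p = 0.231 and 0.245 and a lowest adjusted p of 0.587. For TIMP1 and STC1 Spearman's rho was -0.48 (permutation p = 0.134, adjusted p = 0.489) and for PAEP and CD44 it was 0.16 (permutation p = 0.634, adjusted p = 0.962). Leaving out the 2 libraries farthest from the median of the first gene changed r to -0.32 and -0.08. For TIMP1 and CD44 r was 0.26 (permutation p = 0.423) and rho 0.45 (permutation p = 0.163).

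Likeness over the 17 libraries was measured by Pearson's r of log2(CPM + 1) against 16862 other genes, as a description in which GOLGA8N 1 and 2 weigh heavily. TIMP1 was most like CTSL (r = 0.83), KRT18, a keratin of simple epithelia (0.81), AC091057.3 (0.80) and CD44 (0.79). Over the 14 libraries not named for GOLGA8N the r with TIMP1 was 0.91 for KRT18, 0.75 for CTSL, 0.57 for CD44 and 0.32 for AC091057.3. KRT18 was at 575 and 779 CPM in the pair and reached 818 CPM in 21-CTPS2, above both libraries of the pair.

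PAEP was most like the kinase gene WNK1 (r = 0.81), CD44 (0.78), TIMP1 (0.78) and PTGS1, the constitutive cyclooxygenase (0.77). WNK1 was at 35.1 and 32.5 CPM in the pair, 31.3 CPM in 23-GOLGA8N and 11.6 to 30.8 CPM in the others. CD44 had TIMP1, PAEP and the receptor tyrosine kinase gene MST1R (0.78) as its nearest genes, followed by CTSL (0.78). MST1R had at most 7.99 CPM in any library, so its likeness rests on few reads.

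STC1 had a lower r with the other 3 genes than these had with each other. STC1 held at least 20 reads in only 6 of the 17 libraries, so counting error could lower these values, which was not tested. The r of STC1 was 0.57 with CD44, 0.53 with PAEP and 0.52 with TIMP1, which placed them at ranks 183, 314 and 319 among 16862 genes. Its nearest genes were GAGE12F, a cancer-testis antigen of a family of near-identical copies (r = 0.82), SHC4, an adaptor protein gene (0.81), and the noncoding AC124067.2 and AP001931.1. SHC4 had 4.16 and 2.67 CPM in the pair. It had no read in 23-GOLGA8N and reached 1.14 CPM outside GOLGA8N. GAGE12F was at 757 and 650 CPM in the pair, 514 CPM in 23-GOLGA8N and 482 to 626 CPM elsewhere, though reads can be exchanged between its copies.

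Isoform use was read from the quantifier's division of reads between transcripts, for libraries with at least 20 reads of a gene. For TIMP1, 99.9% of reads fell on the 3 transcripts that end at 47586789, with a lowest share of 98.7%. TIMP1-202, a 5-exon transcript, held 68.4% of the reads and TIMP1-204, a 2-exon transcript that starts further downstream, held 31%. The share of TIMP1-202 was 70.3% in GOLGA8N 1, 65.3% in GOLGA8N 2 and 36.5% in 23-GOLGA8N. Elsewhere it ran from 36% in 21-CTPS2 through a median of 67.5% to 100% in GFP. Both transcripts thus held reads in the pair, at shares inside the range of the other libraries.

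Over the 14 libraries the TIMP1-202 share was 75.9% ± 34.8 (SD, n = 3) with a prefix and 70.7% ± 18.5 (SD, n = 11) without (exact two-sided permutation p = 0.709, where the smallest possible is 0.00549). 3′ tags near a common end hold little sequence that separates these transcripts, and the wide range between single libraries is given with that limit.

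STC1 has 2 transcripts in GENCODE 29 with separate ends, at 23841915 for STC1-201 and 23843914 for STC1-202. Only 6 libraries had 20 reads. STC1-201 held 75.2% of the reads in GOLGA8N 1 and 47.2% in GOLGA8N 2, against 37.6% in LAPTM4B 1, 43.2% in 21-CTPS2, 57.7% in 20-ARSF and 100% in LAPTM4B 2. The quantifier thus placed reads of the pair on both transcripts, at shares inside the range of the other 4 libraries. The end of STC1-202 lies within the span of STC1-201, so this division is an estimate. Use of both ends is not shown by it.

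CD44 reads lay on 10 of its 39 annotated transcripts. CD44-207, a transcript annotated for nonsense-mediated decay, took 38.9% of reads and CD44-201, a 9-exon coding transcript that ends furthest downstream, at 35232402, took 33.6%. The share of CD44-201 was 14.1% in GOLGA8N 1 and 55.3% in GOLGA8N 2, against 0% to 54.3% in the 8 libraries with 20 reads outside the GOLGA8N label. The variable exons that define CD44 splice forms lie far from the 3′ ends read here, so their use could not be measured.

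PAEP reads were divided over 7 of 9 transcripts and 4 end positions. The 2 transcripts ending at 135566955, PAEP-208 and PAEP-205, held 53.6% of reads in GOLGA8N 1, 81.4% in GOLGA8N 2 and 93% in 23-GOLGA8N. In the 8 other libraries with 20 reads this share ran from 0% to 100%, with a median of 47.5%. Since the others spanned 0% to 100%, no share could lie outside their range, and nothing is read from this. PAEP-208 alone held 53.6% in GOLGA8N 1, 54.8% in GOLGA8N 2 and 9.93% in 23-GOLGA8N. In the 8 other libraries it ran from 0% to 82.2% in 20-ARSF, with a median of 0%. PAEP-208 and PAEP-205 share an end, so the division between them carries the limit given for TIMP1 and was not tested.

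**Figure D4:**
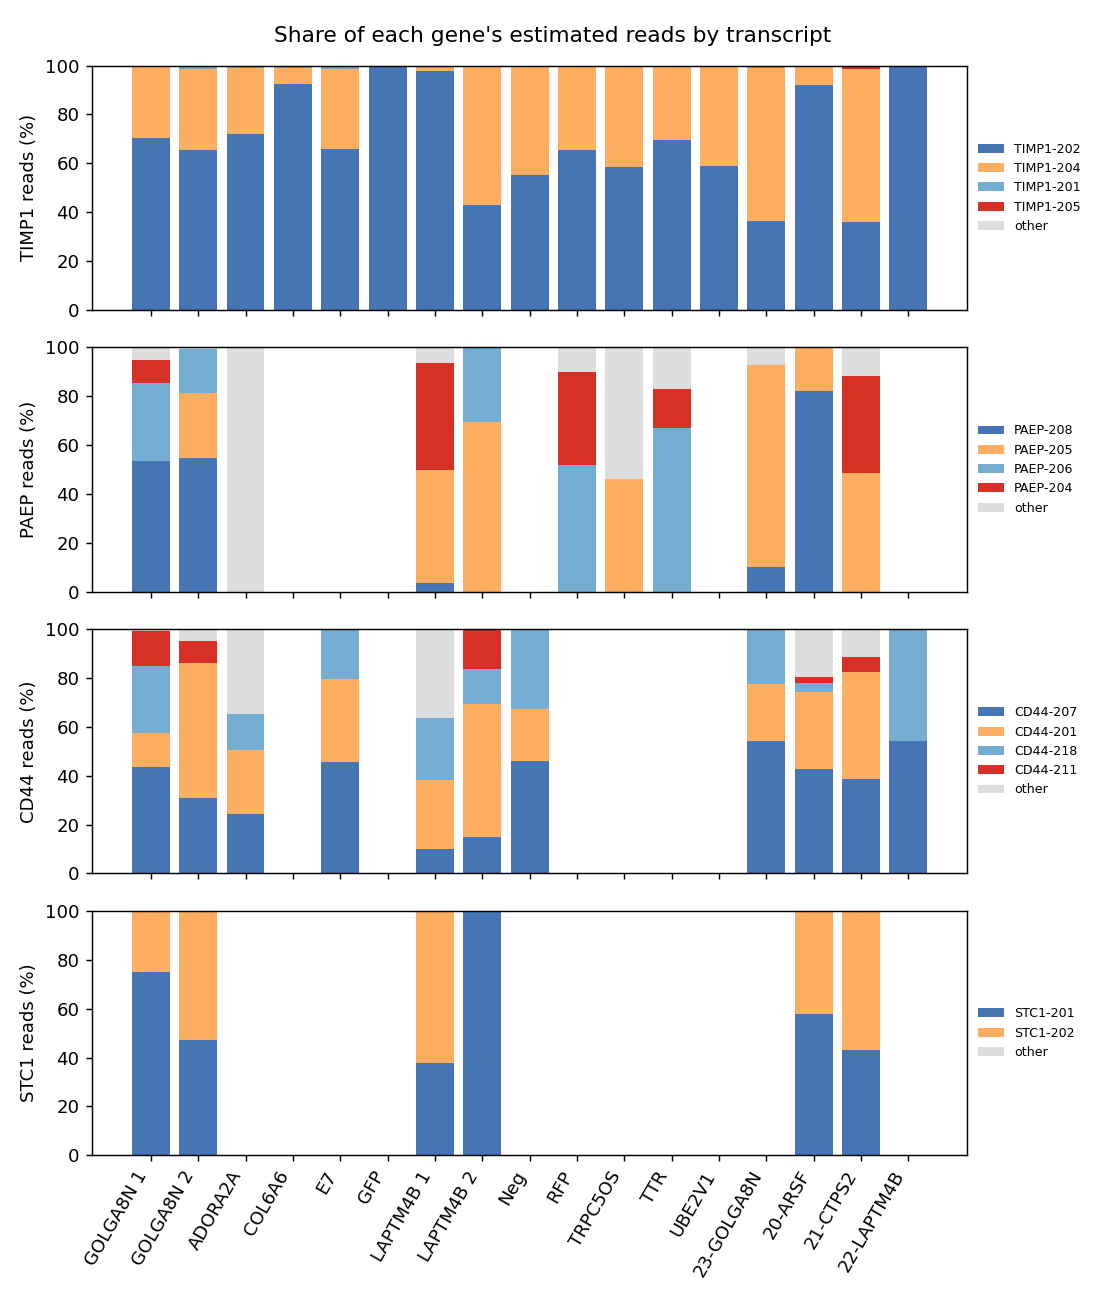
Percent of each gene's estimated reads by transcript in each library (stacked bars, 4 transcripts with most reads and the rest), with libraries under 20 reads of the gene left blank. TIMP1-202 and TIMP1-204 make up nearly all TIMP1 reads, and STC1 has bars in 6 libraries only.

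Genes that work with each of the 4 were read from lists by function. Outside the 4 genes no gene of these 6 lists was called for the pair, 23-GOLGA8N, the prefix or LAPTM4B. Over all tested genes the shares called were 0.0297%, 0%, 0.0422% and 0%. Lists of this size would hold no call at such shares, so nothing is read from their absence. In the list of TIMPs, metalloproteinases and TIMP1 partners, 21 of 40 genes were tested for GOLGA8N 1 and 2 against the other unprefixed libraries. Of these, 13 had a log2 difference above 0, counting TIMP1, which was chosen for its level in this pair. The median was 0.11 with TIMP1 and 0.098 without it, where the median of all 16863 genes was -0.10. CD63, a surface partner of TIMP1, was at 1221 and 1042 CPM in the pair, 861 CPM in 23-GOLGA8N and 822 to 1134 CPM in the other unprefixed libraries (log2 0.26 ± 0.144 SE; edgeR adjusted p = 0.863). ADAM8, a membrane metalloproteinase, was at log2 1.53 ± 1.02 (SE; edgeR adjusted p = 0.863), with 5.67 and 5.73 CPM. ADAMTS4, a secreted protease of aggrecan, was at log2 -2.95 ± 1.27 (SE; edgeR adjusted p = 0.642) for the prefix.

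Of the other inhibitors, TIMP2 reached 6.07 CPM, TIMP3 3.27 CPM and TIMP4 3.78 CPM in any library. The TIMP4 value was that of GOLGA8N 1, with 0 CPM in GOLGA8N 2. Among the proteases that TIMP1 inhibits, MMP9 had 11 reads and MMP2 7 reads over all 17 libraries, and MMP1, MMP10 and MMP12 had 0. MMP9 was at 3.02 CPM in GOLGA8N 1 and 0 CPM in GOLGA8N 2. The libraries of the pair thus differed for MMP9 and TIMP4, on 11 reads of each gene over all libraries. The membrane protease MMP14, which TIMP1 inhibits poorly, was at 4.91 and 5.35 CPM in the pair and 3.41 to 20.7 CPM in the others outside GOLGA8N. These 5 genes were chosen after their values were seen and do not stand for all secreted metalloproteinases.

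In the CD44 and hyaluronan list 20 of 28 genes were tested, 10 higher in the pair, counting CD44 itself, and 10 lower. The median log2 was -0.02 with CD44 and -0.05 without it. The hyaluronan synthase genes HAS2 and HAS3 had 2.34 and 15 reads over all libraries. MSN, the moesin that links the CD44 tail to actin, was at 415 and 449 CPM in the pair and 372 to 508 CPM in the other unprefixed libraries. The RNA-binding protein gene KHDRBS1, whose product acts on CD44 splicing, was at log2 -0.42 ± 0.193 (SE; edgeR adjusted p = 0.863), and HYAL1, a hyaluronidase, at 1.83 ± 1.32 (SE; edgeR adjusted p = 0.863). SRGN, the proteoglycan serglycin that CD44 binds, was at log2 -0.83 ± 0.208 (SE; edgeR adjusted p = 0.246) for the prefix, opposite in sign to CD44. ESRP1 and ESRP2, epithelial regulators of CD44 splicing, reached 3.64 and 1.82 CPM at most.

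Of 19 lipocalin genes 6 were tested, 1 of them, PAEP, with a log2 difference above 0 in the pair. PTGDS, the lipocalin-type prostaglandin D synthase, was at 2.64 and 1.15 CPM in the pair, 9.66 CPM in 23-GOLGA8N and up to 11.3 CPM in the other unprefixed libraries. C8G, a complement component, had 0 reads in all GOLGA8N libraries and up to 21.8 CPM elsewhere, in GFP (log2 -6.00 ± 3.01 SE; edgeR adjusted p = 0.863). With 0 reads in the pair, C8G could only be below 0, so nothing is read from the signs in this list.

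Of the stanniocalcin list 5 of 6 genes were tested. STC2, the paralogue of STC1, was at 32.5 and 27.1 CPM in the pair, 35.4 CPM in 23-GOLGA8N and 10 to 50.9 CPM in the other unprefixed libraries (log2 0.23 ± 0.359 SE; edgeR adjusted p = 0.989). PAPPA, the protease that stanniocalcins inhibit, reached 4.82 CPM at most, and IGFBP4, its substrate, was at 48 and 58.1 CPM in the pair and 39.9 to 92.2 CPM in the other unprefixed libraries. CASR, the calcium-sensing receptor, was at log2 -2.96 ± 1.84 (SE, edgeR adjusted p = 0.863), on under 1 CPM in each library of the pair. The other unprefixed libraries had a median of only 1.74 CPM and a highest value of 21.8 CPM, the same as that of C8G in GFP.

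STC1 is known as a hypoxia target, and the hypoxia list was measured beside it. Of 21 tested genes 6 were higher and 15 lower in the pair, with a median log2 of -0.16 against -0.10 for all 16863 genes. The 2 libraries of the pair differed in the summed level of the list. It was 2557 CPM in GOLGA8N 1, below the 2650 to 5102 CPM of the other unprefixed libraries. In GOLGA8N 2 it was 3562 CPM, near their median of 3660 CPM. ENO1, a glycolytic enzyme, was at log2 -0.29 ± 0.149 (SE; edgeR adjusted p = 0.863) and P4HA1, a collagen prolyl hydroxylase, at -0.91 ± 0.514 (SE; edgeR adjusted p = 0.863). With the prefix 18 of 20 hypoxia genes had a log2 difference above 0, with a median of 0.60 against -0.06 for all 14230 genes, and PGK1, phosphoglycerate kinase, was at 0.60 ± 0.172 (SE; edgeR adjusted p = 0.313). None of them was called. The list summed to 5607 CPM in 21-CTPS2, 4744 CPM in 22-LAPTM4B and 3379 CPM in 20-ARSF. The last lay below the median of 3660 CPM of the other unprefixed libraries, of which E7 reached 5102 CPM. A rise shared by the prefixed libraries is therefore not shown.

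TIMP1 and CD44 are known targets of AP-1, STAT3 and NF-kB signalling, whose factors and early targets made up the last list. Of 16 tested genes 7 were higher and 9 lower in the pair, with a median log2 of -0.07. EGR1, an immediate early factor, was at log2 0.58 ± 0.24 (SE; edgeR adjusted p = 0.863) and SOCS3, the feedback inhibitor of STAT3, at -1.63 ± 0.739 (SE; edgeR adjusted p = 0.863). JUN, a subunit of AP-1, was at 105 and 80.6 CPM in the pair, 206 CPM in 23-GOLGA8N, 41.8 to 165 CPM in the other unprefixed and 175 to 243 CPM in the other prefixed libraries. Its prefix difference of log2 1.52 ± 0.344 (SE) missed the threshold (edgeR adjusted p = 0.27).

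Markers of adherent cell types that also express TIMP1 and CD44 were summed beside the 4 genes. The fibroblast list was at 46.9 and 57.5 CPM in the pair, inside the 40 to 64.3 CPM of the other unprefixed libraries, and LUM, PDGFRB and FAP had 0 reads in every library. COL1A2, its highest gene, was at 20.7 to 62.6 CPM. The epithelial list, with reads for 9 of 9 genes and led by KRT8, was at 1454 and 1825 CPM in the pair, 1792 CPM in 23-GOLGA8N, 871 to 1787 CPM in the other unprefixed and 1669 to 2040 CPM in the other prefixed libraries. The prefixed median of 1920 CPM was above every unprefixed library outside the pair, where TIMP1 was also higher, and its part in the TIMP1 difference was not tested. The melanocyte list reached 23.9 CPM, with TYR, DCT, TYRP1 and SOX10 at 0 reads, and the endothelial list 14 CPM, with KDR and TEK at 0. The monocyte and macrophage list was at 23.9 and 46.1 CPM in the pair, inside the 19.6 to 48.5 CPM of the other unprefixed libraries, and MRC1 was at 0. The megakaryocyte list was at 1.15 and 13.9 CPM in the pair and at most 5.78 CPM in the libraries outside GOLGA8N, with PF4, PPBP and GP9 at 0 reads.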

How the data were processed

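The members, lists and tests were chosen with earlier results of these data known. Per the file headers, each of the 17 deposited files lists 228297 transcripts with estimated counts and TPM in the layout of Salmon; the submitters' processing notes list Salmon 0.7.2, UMI-tools, featureCounts and STAR, the last under the same version number, and GRCh38 as build. The deposited TPM values were made by the quantifier and were used only for isoform shares. Whether molecular identifiers (12 bp) were collapsed, and the strand setting, are not given in the sources used here. Antisense partners are therefore uncertain. Estimated counts of 205336 transcripts matched to GENCODE 29 by identifier were summed per gene and rounded for tests; unmatched transcripts held 3.32% to 3.6% of reads and were left out.

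edgeR 4.0.16 (TMM, filterByExpr, robust quasi-likelihood fit, Benjamini-Hochberg, threshold 0.05) in R 4.3.3 was fitted on all genes: once over 17 libraries in 4 sets (GOLGA8N 1 and 2, other unprefixed, 23-GOLGA8N, other prefixed), once over the 14 libraries not named for GOLGA8N with prefix and LAPTM4B label as terms, and once over the 4 libraries titled 1 and 2. The lone 23-GOLGA8N was assumed to vary like the others. SE is the log2 difference over the square root of F. On simulated counts for the prefix comparison (14230 genes) 50 genes were altered at each size, of which 36 (8-fold), 26 (4-fold) and 9 (2-fold) were found. For GOLGA8N 1 and 2 (16863 genes) the numbers found were 18, 9 and 3. Correlations used 100000 permutations. Alternatives were DESeq2 1.42.0, its size factors, no filter, another reference set, a replicate block and leaving out libraries. Named genes were the 4 members, per list the 2 lowest p for the pair and the lowest for the prefix plus any called, the 4 most alike genes, and up to 6 called genes per comparison (other list genes were added after their values were seen).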

Additional observations from a re-analysis of the deposited data

Results flagged for a closer look

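CD44 in GFP, at 23.6 CPM, was flagged as an outlier above the other 8 unprefixed libraries that name neither GOLGA8N nor LAPTM4B. It rests on 13 reads in the library of lowest depth. Its 95% Poisson interval of 12.59 to 40.42 CPM overlapped that of E7, 8.385 to 15.28 CPM. About 1 in 20 such groups is flagged by chance, and 4 genes were examined. The fitted differences of CD44 and STC1 had opposite signs in the GOLGA8N libraries on either side of the prefix: GOLGA8N 1 and 2 were above the mean of the other unprefixed libraries and 23-GOLGA8N below that of the other prefixed ones. The log2 difference between the sides was 3.46 for CD44 and 7.56 for STC1, and neither was tested. The values of 23-GOLGA8N, -0.62 ± 0.78 (SE) for CD44 and -3.72 ± 2.24 (SE) on 2 reads for STC1, were each within 2 SE of 0, so an opposite movement is not shown.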

How the results depend on the processing

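Counts of called genes depended on the tool and filter. For GOLGA8N 1 and 2 against the other unprefixed libraries the 5 calls became 13 with DESeq2, 14 with no filter on low counts and 2 to 5 with 1 library of the pair left out (2 without GOLGA8N 2). For 23-GOLGA8N the 0 calls became 1 with DESeq2, 10 with no filter and 3 without GFP. For the prefix the 6 calls became 51 with DESeq2, 48 with no filter and 0 to 4 with 1 prefixed library left out (0 without 21-CTPS2, 1 without 20-ARSF). For LAPTM4B the 0 calls became 2 with DESeq2 and 3 with no filter. The cause was not tested.

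TIMP1 passed for the prefix in DESeq2 (adjusted p = 0.0309) and with no filter in edgeR (adjusted p = 0.0276). Over all 7 alternatives its adjusted p ran from 0.0276 to 0.999. These p-values are not independent of the choice of TIMP1, so a prefix difference is taken neither as shown nor as absent. The log2 difference of GOLGA8N 1 and 2 stayed within 1.41 to 1.48 for TIMP1, 2.92 to 3.39 for PAEP and 2.60 to 2.99 for CD44 over 7 alternatives, and for STC1 it rose to 5.68 against Neg, GFP and RFP alone, where STC1 had 9 reads in all. Small differences changed sign: TIMP1 for 23-GOLGA8N ran from -0.015 (without 20-ARSF) to 0.18 with 1 prefixed library left out. With 1 LAPTM4B library left out, the LAPTM4B differences ran from -0.014 to 0.089 for TIMP1 and -0.26 to 0.93 for PAEP (lowest without LAPTM4B 1), and from -0.75 to 0.42 for CD44 (highest without 22-LAPTM4B). Without GFP that of CD44 was 0.088. The numbers 1 and 2 gave 1 correlation of deviations, 0.09, under the 0.1 used here for pairing; with the replicate block edgeR called 2 genes, as without it. Leaving out prefixed libraries for 23-GOLGA8N was chosen after the data were seen. Low reads limit PAEP, CD44 and STC1 outside the pair.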

Other observations

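The quantifier's estimates repeat across libraries. TIMP1-202 received 741 estimated reads in both Neg and TTR, to 6 digits, although the gene had 1338 and 1069 reads there. STC1-201 held 47.2% of STC1 reads in both GOLGA8N 2 and ADORA2A, with 143 and 11 reads of the gene. Whether molecules were collapsed before this step was not given, and the reason for the repeated values was not tested.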
